A study of Bos taurus with 170 samples.

Results

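Within each bovine embryo the blastomeres differed widely in how many transcripts were counted, and the cells above and at or below their own embryo's median were compared here. A blastomere is a cell of the cleaving embryo. Each captured mRNA carried a unique molecular identifier (UMI), so that copies made by PCR counted as 1. Of the 170 sequenced cells, 161 held 2000 or more UMI, spike-ins included, and these were assigned to groups chosen by their UMI on genes, split at the median of their embryo. Cells above the median are called high cells (77 cells) and cells at or below it low cells (84 cells). The UMI of each embryo's high cells and of its low cells were then summed, and the embryo, which gives both groups, is the replicate.

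The embryos were produced from oocytes by in vitro maturation and fertilization and were not treated. On Day 2 the labels place 6 embryos at the 8-cell stage, with 20 high and 23 low cells, and on Day 3 they place 8 embryos at the 16-cell stage, with 57 high and 61 low cells. An embryo contributed 6 to 9 kept cells on Day 2 and 13 to 17 on Day 3, and cells lost or under 2000 UMI leave an embryo incomplete. Cell barcodes were used in a pair of sets. The first holds the Day 2 embryos with Day3-E1 and Day3-E2, the second holds the embryos from Day3-E4 up to Day3-E8, and the labels do not settle Day3-E3 as a whole. Cell 16 of Day3-E3 carries the same barcode as cell 1 of Day2-E1, so it lies outside the first set. The barcodes of the other kept cells of Day3-E3 are carried by no other cell. Shared barcodes were common: 146 of the 161 kept cells carry a barcode that a cell of the other set also carries. The p-values measure the spread between embryos.

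Early cleavage divisions split the egg's cytoplasm without growth, so each blastomere inherits a portion of the maternal RNA. In cattle the embryo's own genome is switched on in force around these stages, while maternal RNA is being removed. ERCC spike-ins are synthetic RNAs of which an equal amount was added to every well, so their count follows the capture and sequencing of that well.

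By construction the groups differed in UMI on genes, and these values only describe the split. On Day 2 the high cells held 80415 to 357287 UMI on genes (median 135539) and the low cells 2634 to 113825 (median 53469). On Day 3 the high cells held 20776 to 108376 (median 32757) and the low cells 2078 to 43113 (median 16414). The largest cell of an embryo held 4.71 to 89.3 times the UMI of its smallest on Day 2 (median 39.2, n = 6) and 7.68 to 36.4 times on Day 3 (median 13.85, n = 8). The split was narrow in some embryos and wide in others. In Day2-E3 the lowest high cell held 116926 UMI on genes and the highest low cell 113825, whereas in Day2-E1 these cells held 93042 and 14248. In Day3-E3 they held 23583 and 23399. Summed per embryo, the high cells gave 372655 to 696606 UMI on Day 2 and 194549 to 393054 on Day 3, and the low cells 20417 to 304336 and 98281 to 207131. The deepest cell alone gave 31.8% to 51.3% of the sum of the Day 2 high cells (median 45.7%, n = 6), so that few cells stand behind each Day 2 value.

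The spike-ins moved with the genes. In every embryo the high cells held more ERCC UMI per cell than the low cells. On Day 2 the embryos' means were 1886 to 2586 ERCC UMI in high cells (median 2223) and 92.3 to 993.5 in low cells (median 652.9), and the ranges did not overlap. On Day 3 they were 392.5 to 1395 (median 829.9) and 210.7 to 604.3 (median 441.9), with overlap between the groups. The mean log2 ratio of high over low was 2.31 ± 1.27 on Day 2 (SD, n = 6, higher in 6 of 6 embryos, two-sided exact permutation of the sign per embryo, p = 0.0313, adjusted p = 0.0625 over 6 tests). On Day 3 it was 0.99 ± 0.36 (SD, n = 8, higher in 8 of 8 embryos, exact permutation p = 0.00781, adjusted p = 0.0234). Both p-values are the smallest these numbers of embryos allow. The ratio was larger on Day 2 than on Day 3, by 1.32 on the log2 scale (exact permutation of the embryos, p = 0.00466, adjusted p = 0.0140 over 3 measures, n = 6 and 8). The split itself was also wider on Day 2, with a median ratio of mean UMI on genes of 3.67 against 2.21 on Day 3. All Day 2 embryos were in the first barcode set and most Day 3 embryos in the second, so day and set largely coincide. Within the first set the ratio of mean ERCC UMI was 1.76 in Day3-E1 and 1.97 in Day3-E2. In the 6 Day 2 embryos it was 2.21 to 25.07. The part of the barcode set in the difference between days was not tested.

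**Figure D1:**
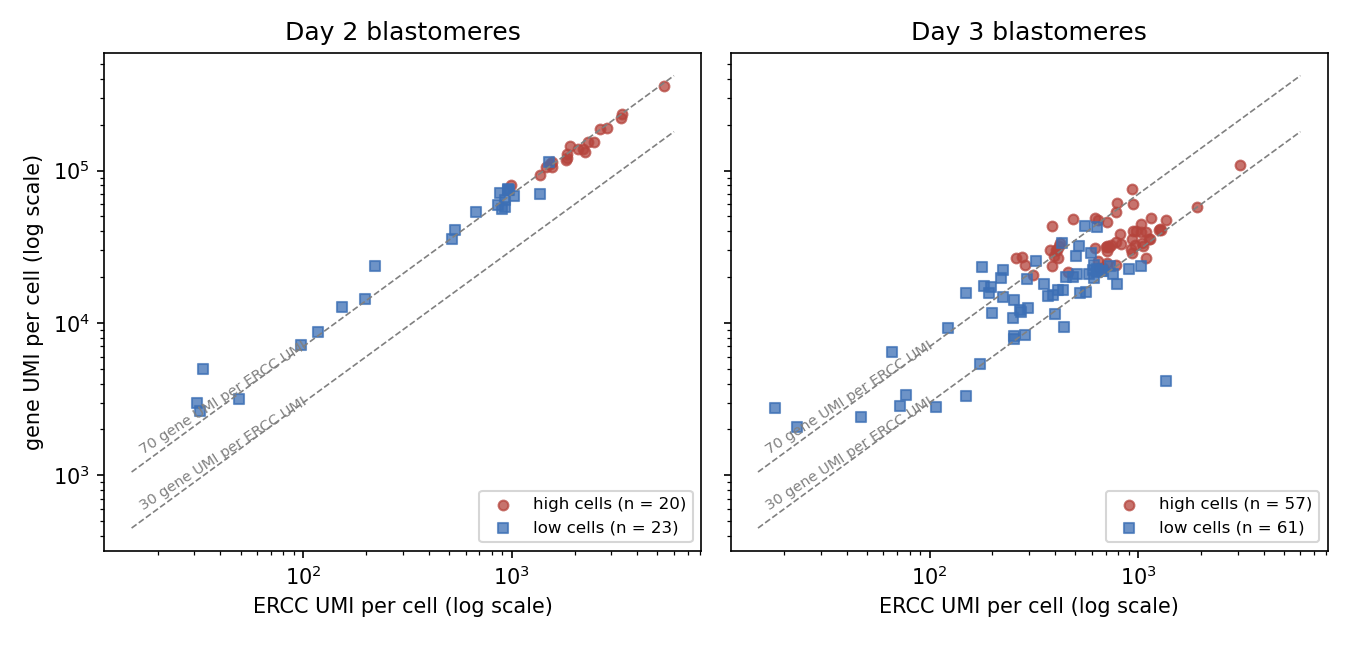
UMI on genes against ERCC UMI for each of the 161 kept cells, both on log scales, with Day 2 on the left and Day 3 on the right. Circles are high cells and squares low cells, and the dashed lines mark 30 and 70 gene UMI per ERCC UMI. On Day 2 the cells lie close to the line of 70, and on Day 3 most spread between both lines, with 1 low cell of Day3-E3 far to the right.

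The share of ERCC UMI was therefore close in both groups. On Day 2 it was 1.41% to 1.53% in high cells (median 1.45%, n = 6) and 1.24% to 1.61% in low cells (median 1.36%, n = 6), and it was higher in the high cells in 5 of 6 embryos. On Day 3 it was 1.16% to 2.95% in high cells (median 2.46%, n = 8) and 1.45% to 3.19% in low cells (median 2.52%, n = 8), and it was lower in the high cells in 6 of 8 embryos. The Day 3 range spans both barcode sets. In the first set, Day3-E1 held 1.36% in high and 1.47% in low cells, and Day3-E2 1.47% and 1.45%, near the Day 2 values. In the second set, Day3-E4 to Day3-E8 held 2.35% to 2.95% in high and 2.38% to 3.19% in low cells. Day3-E3 stood apart, with 1.16% in high and 2.118% in low cells. There 1 low cell held 24.6% ERCC UMI, and the other Day 3 embryos differed between groups by at most 0.42 percentage points.

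The UMI on genes per ERCC UMI, which takes the yield of each well into account, spread far less than the UMI themselves. Within an embryo the SD of the log2 UMI on genes over cells was 0.74 to 2.76 on Day 2 and 0.81 to 1.36 on Day 3. The SD of the log2 UMI on genes per ERCC UMI was 0.11 to 0.41 on Day 2 and 0.22 to 0.45 on Day 3, apart from 1.25 in Day3-E3. Counting of the ERCC UMI alone would give an SD of 0.04 to 0.14 on Day 2 and 0.05 to 0.12 on Day 3. The ratio of this measure between high and low cells was 0.83 to 1.148 on Day 2 (median 0.92, n = 6) and 0.92 to 1.84 on Day 3 (median 1.098, n = 8). Across the cells of 1 embryo the log UMI on genes and on ERCC had a Pearson r of 0.990 to 0.999 on Day 2 and of 0.922 to 0.987 in 7 of 8 Day 3 embryos. This is a description over the 6 to 17 cells of an embryo, which outside Day3-E3 share a barcode set. In Day3-E3 r was 0.202. Its cells need not share a library, since only its cell 16, the low cell with 24.6% ERCC UMI, shares a barcode with a cell of the first set. The ratio of UMI on genes per ERCC UMI between high and low cells was above 1 in 1 of 6 Day 2 embryos and in 6 of 8 Day 3 embryos. The groups are named here by their UMI and not by RNA content, whose part in the split was not tested.

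**Figure D2:**
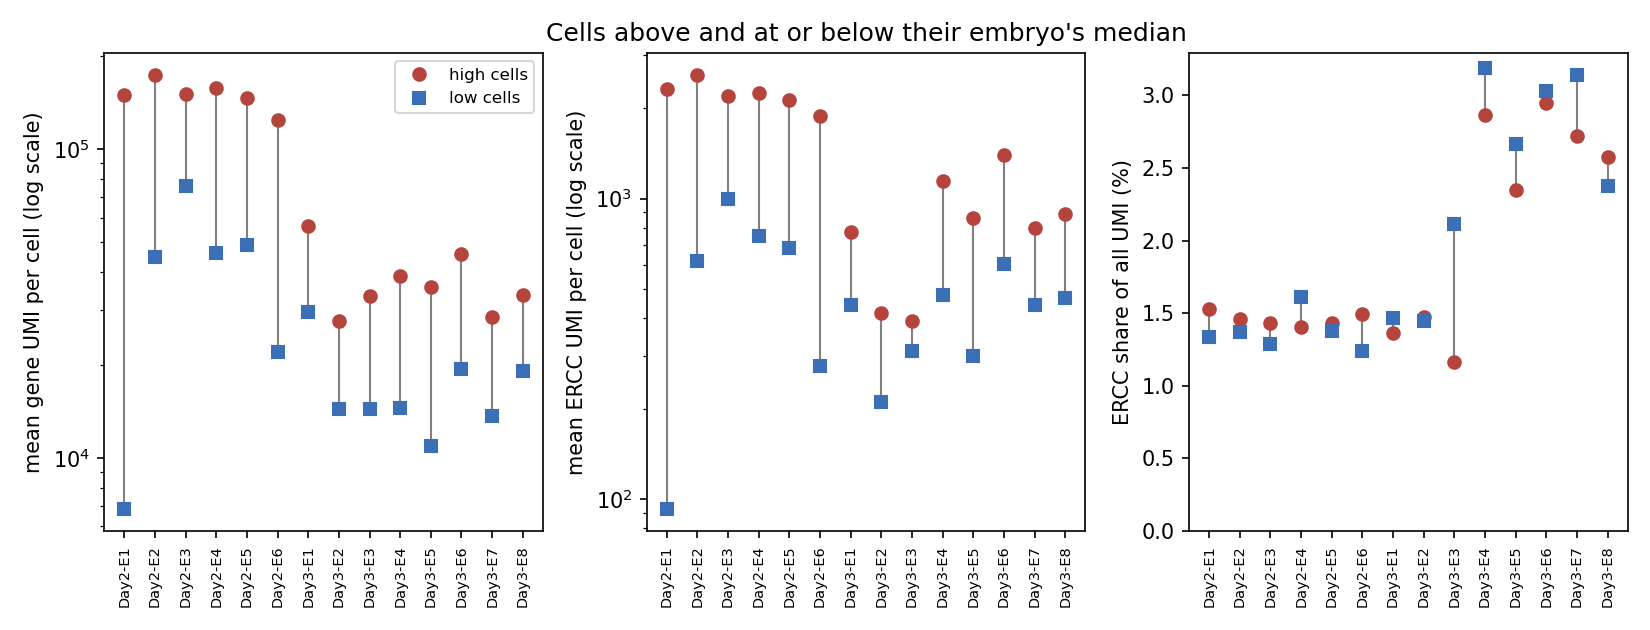
Mean UMI on genes per cell, mean ERCC UMI per cell (both log scales) and ERCC share of all UMI in percent, for the high cells (circles) and low cells (squares) of each of the 14 embryos, joined by a line. The circles lie above the squares in every embryo for both UMI measures, whereas the ERCC shares lie close together except in Day3-E3.

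At equal depth, more different genes were detected in high than in low cells on Day 3. Without thinning, 2373 to 6400 genes per cell were detected in Day 2 low cells (embryo means) and 7024 to 7362 in high cells, which are not at equal depth. When each cell was thinned to 1500 UMI on genes, the expected number on Day 2 was 1033 to 1053 in high cells and 1009 to 1053 in low cells, a mean difference of 13.77 ± 10.36 genes (SD, n = 6, higher in 5 of 6 embryos, exact permutation p = 0.0625, adjusted p = 0.0750). On Day 3 it was 962.2 to 1041 and 956.1 to 1024, a mean difference of 17.6 ± 17.2 genes (SD, n = 8, higher in 8 of 8 embryos, exact permutation p = 0.00781, adjusted p = 0.0234). The Day 3 difference was 1.86 genes in Day3-E3 and 54.7 in Day3-E5. At 1500 UMI only Day 3 passed the threshold. At 5000 UMI the differences were 26.12 genes on Day 2 (exact permutation p = 0.0313, the smallest possible) and 57.7 on Day 3 (p = 0.00781). Cells under 5000 UMI on genes drop out there, and all of these were low cells. The low group of Day2-E1 then held only its cell 6. The difference between days at 1500 UMI was not larger than the spread (3.86 genes, exact permutation p = 0.704). The number by which the labels order the blastomeres of an embryo did not differ between the groups beyond the spread. It was lower in high cells by 1.16 ± 1.26 on Day 2 (SD, n = 6, lower in 5 of 6 embryos, exact permutation p = 0.0625, adjusted p = 0.0750), and on Day 3 it was higher by 0.79 ± 3.18 (SD, n = 8, exact permutation p = 0.469).

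On Day 2 the high cells held larger shares of HMGB2, CBX5 and CENPF, and the low cells larger shares of TMSB4X and of the oocyte genes OOSP1, ZAR1L and DPPA3. A level in CPM is a gene's UMI per 1000000 UMI on genes in the high or low cells of an embryo, so a difference is one of share, not of molecules per cell. By edgeR's quasi-likelihood test paired by embryo, 86 of 4593 genes tested were called at a Benjamini-Hochberg adjusted p under 0.05, that is 1.87%. Of these, 47 were higher in high cells (1.02%) and 39 lower (0.849%). At an unadjusted p under 0.05 there were 687 genes. The calls leaned on single embryos: without Day2-E4 only 5 genes were called, and without Day2-E6 only 25. Without pairing by embryo 2 were called. When the cells of an embryo were split instead by UMI on genes per ERCC UMI, which left 17 of 43 cells (39.5%) in the same group, edgeR called 0 genes, with 381 at an unadjusted p under 0.05. That split also turned the sign of 35 of the genes named here for Day 2, HMGB2 (-0.50), TMSB4X (0.029), ZAR1L (0.31) and DPPA3 (0.083) among them. More cells changed group than kept it, so a turned sign does not test the main split. The part of the UMI yield of a well in the Day 2 differences was not tested. When the cells were split on one part of the genes and the other part was tested, 90 genes were called, 83 of them among the 86. Both parts share the depth of their well, so this split gives no independent support for the calls.

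HMGB2, a DNA-bending chromatin protein that is abundant in dividing cells, was the called gene with the lowest p among those higher in high cells. On Day 2 it held 1766 to 3801 CPM in high cells (median 2546) and 1114 to 2245 in low cells (median 1617). The high cells were above the low cells in each of the 6 embryos, by most in Day2-E1, with 3801 against 1127, and by least in Day2-E3, with 2557 against 2126. The log2 ratio was 0.65 (standard error, SE, 0.12, edgeR adjusted p = 0.000922).

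TMSB4X encodes thymosin beta 4, which binds actin monomers, and it had the lowest p of all on Day 2. It held 3495 to 7573 CPM in high cells (median 4258) and 5438 to 16799.7 in low cells (median 8781). The low cells were above the high cells in every embryo, from 5438 against 4234 in Day2-E3 to 16799.7 against 3495 in Day2-E1. The log2 ratio was -0.92 (SE 0.13, edgeR adjusted p = 2.18e-07).

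Among called genes with the same direction in all 6 embryos, the largest rises in high cells were those of PIK3R1, METTL16, ZNF24, SARS, PPP1R2, PPARGC1A, EMILIN2 and FUBP1. Their log2 ratios ran from 0.67 to 1.18 and their edgeR adjusted p from 0.0184 to 0.0381. These are low genes: PIK3R1, a regulatory subunit of PI3-kinase, held 38.0 to 70.5 CPM in high cells and 0 to 49.2 in low cells, and METTL16, an RNA methyltransferase, 75.1 to 114.8 and 25.5 to 88.7. The 107 UMI of FUBP1 in all Day 2 low cells were the most of these 8 genes. PIK3R1 had 0 UMI in the low cells of Day2-E1, Day2-E5 and Day2-E6. The filter on low counts could be passed through the deeper high sums alone, which favours rises among such low genes.

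The largest falls in high cells after TMSB4X were those of TOMM20, METTL15, SRI, GNG5, SFT2D1, POLR3K and ZCCHC3. Their log2 ratios ran from -0.90 to -0.69 and their edgeR adjusted p from 0.00135 to 0.0381. POLR3K, a subunit of RNA polymerase III, held 225.7 to 370.3 CPM in high cells and 394.3 to 832.6 in low cells, and these ranges did not overlap. ZCCHC3, an RNA-binding protein, held 196.7 to 279.9 and 368.0 to 538.8, again without overlap. Over all genes tested on Day 2, 5.57% were higher in the high cells of every embryo and 4.14% were lower.

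**Figure D3:**
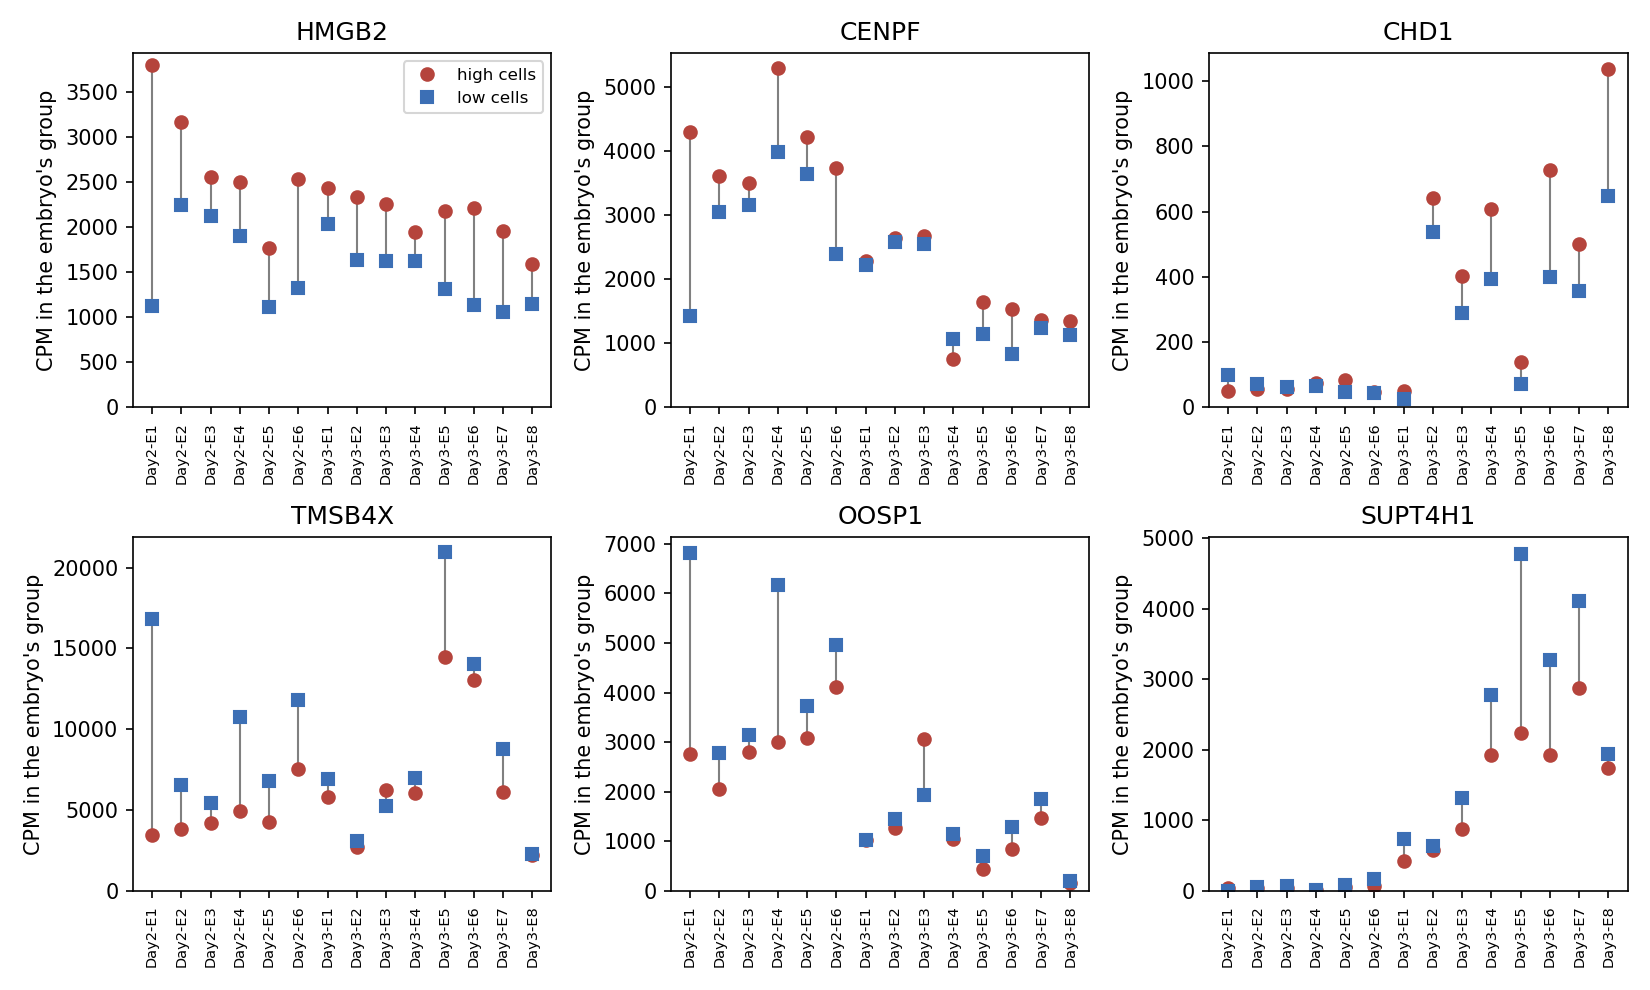
CPM of 6 genes in the high cells (circles) and low cells (squares) of each of the 14 embryos, with axes from 0. HMGB2 is higher in the high cells of all 14 embryos, TMSB4X is lower in the high cells of 13, and SUPT4H1 is lower and CHD1 higher in the high cells of all 8 Day 3 embryos.

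Of 43 tested genes of G2 and mitosis, 3 were higher in high cells on Day 2 (6.98%, against 1.02% over all genes) and 0 lower (against 0.849%). These were HMGB2, CBX5, the heterochromatin protein HP1 alpha, and CENPF, a kinetochore protein. CBX5 held 305.8 to 414.1 CPM in high and 151.0 to 259.4 in low cells (log2 ratio 0.62, SE 0.15, edgeR adjusted p = 0.0111), with no overlap. CENPF held 3500 to 5301 and 1420 to 3991 CPM. The median log2 ratio of the list was 0.17, against 0.00 over all genes tested, and 28 of the 43 lay above 0. Its summed level was higher in the high cells of 5 of 6 embryos. Without Day2-E4, 1 of the 43 was called. LIG1, HMGB3, BRCA1, PARP1 and KIF15 were also among the 47 and belong to no group tested, since they were picked after their values were seen. LIG1, a DNA ligase, held 1876 to 2275 CPM in high and 1029 to 1801 in low cells. HMGB3, a relative of HMGB2, had a log2 ratio of 0.59, the repair genes BRCA1 and PARP1 had 0.65 and 0.50, and the spindle motor KIF15 had 0.59. Of 30 tested S phase genes 0 were higher in high cells by edgeR's test and 1 was lower (3.33%, against 0.849% over all genes). This was TYMS (log2 ratio -0.44), which makes thymidylate.

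Oocyte and maternal factors lay on the other side. Of the 16 tested, 3 were lower in high cells on Day 2 (18.8%, against 0.849% over all genes) and 0 higher (against 1.02%). The median log2 ratio was -0.14, and 14 of the 16 lay below 0. OOSP1, an oocyte-secreted protein, held 2051 to 4114 CPM in high cells (median 2906) and 2791 to 6808 in low cells (median 4348), and was lower in the high cells of each embryo (log2 ratio -0.54, SE 0.12, edgeR adjusted p = 0.00667). ZAR1L, a regulator of maternal RNA, held 918.5 to 1315 and 1268 to 2310 CPM. DPPA3, a maternal factor that guards DNA methylation, held 2237 to 3183 and 2658 to 4751 CPM. The summed level of the list was 16060.7 to 19135.7 CPM in high cells and 17451.1 to 24783.3 in low cells, and it was lower in the high cells of all 6 embryos. Without Day2-E4, 0 of the 16 were called by edgeR's test, and 13 lay below 0.

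Genes of ribosomal proteins were called in both directions. Of 69 tested on Day 2, RPSA, RPS14 and RPS2 were lower in high cells (4.35%, against 0.849% over all genes). RPL19 and RPL24 were higher (2.9%, against 1.02%). RPSA held 835.8 to 1137 CPM in high and 1351 to 1812 in low cells, without overlap. RPL19 held 498.6 to 695.0 and 97.96 to 577.0 CPM. The median log2 ratio of the 69 was -0.14 and 51 lay below 0. These genes have many near-identical copies in the genome, as do TMSB4X, HMGB2, HMGB3 and the histones, and how reads were divided among such copies is not given in the sources used here.

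Other lists held 2 calls or fewer on Day 2, and with so few calls their shares are read loosely against the 1.87% over all genes. Of 51 tested nuclear genes of oxidative phosphorylation, COX7A2L (1.96%) was lower in high cells and 41 lay below 0, with a median log2 ratio of -0.11. Of 35 tested RNA decay genes, CNOT4, of the CCR4-NOT complex, was higher (log2 ratio 0.46) and LSM7 lower (-0.47), 5.71% in all. Of 63 tested ZNF genes, ZNF24 was higher and ZNF706 lower (3.17% in all), and 47 lay above 0 with a median of 0.16. HIST2H2AC, a histone H2A gene, was the 1 called of 14 tested histone genes and was higher in high cells (log2 ratio 0.62), while the median of the 14 was -0.07 and their summed level was higher in the high cells of 1 of 6 embryos. By edgeR's test 0 genes were called among 37 translation factors, 51 genes of the mitochondrial ribosome, 29 of the proteasome, 1 of embryonic genome activation, 25 of stress and immediate early response and 9 of cell death and p53. The summed level of translation factors was nevertheless lower in the high cells of all 6 embryos (11695.6 to 11899.8 CPM against 12147.3 to 13812.0), and that of stress and immediate early genes was higher in all 6 (8442 to 10427.2 against 7759 to 8967). At edgeR's threshold 0 of the 4 tested cumulus and granulosa genes differed, and the summed level of the 28 in the table was 741.9 to 885.7 CPM in high and 702.4 to 1037 in low cells, with 4 of the 28 at 0 in all Day 2 cells. The 10 sperm genes in the table summed to 162.2 to 190.2 CPM in high and 49.0 to 220.2 in low cells. Mitochondrially encoded mRNAs have no entry in the table used.

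On Day 3 few genes differed. By edgeR's paired test 10 of 3511 genes were called, 0.285%, of which 2 were higher in high cells (0.057%) and 8 lower (0.228%), and 398 genes had an unadjusted p under 0.05. Without Day3-E6 there were 5 calls and without Day3-E7 6. Among the 5 embryos of the second barcode set 11 genes were called, 6 of them among the 10. In the 2 embryos of the first set 0 genes were called by edgeR's test, with 196 at an unadjusted p under 0.05. Split by UMI on genes per ERCC UMI, which left 60 of 118 cells (50.8%) in the same group, edgeR called 0 genes on Day 3, with 172 at an unadjusted p under 0.05.

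HMGB2 was again higher in high cells, and it was the 1 gene called on both days. It held 1588 to 2435 CPM in high cells (median 2200) and 1062 to 2033 in low cells (median 1467), and the high cells were above the low cells in all 8 embryos. The log2 ratio was 0.54 (SE 0.09, edgeR adjusted p = 4.19e-05), and 0.35 in the first barcode set alone, where it was not called (adjusted p = 0.696 by edgeR's test). CHD1, a chromatin remodeller, held 50.9 to 1036 CPM in high cells (median 554.3) and 24.1 to 647.6 in low cells (median 375.9). Its level varied more between embryos than between groups, yet the high cells were above the low cells in 8 of 8 embryos (log2 ratio 0.59, SE 0.13, edgeR adjusted p = 0.00876). REST, TPM3 and FAM192A came next, with log2 ratios of 0.53, 0.39 and 0.33, and did not pass the threshold.

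SUPT4H1, a subunit of the elongation factor DSIF, had the lowest p on Day 3. It held 419.8 to 2873 CPM in high cells (median 1833) and 637.7 to 4782 in low cells (median 2360), and was lower in the high cells of each of the 8 embryos, by most in Day3-E5, with 2245 against 4782. The log2 ratio was -0.62 (SE 0.09, edgeR adjusted p = 6.59e-06). PARP16 and SRSF2 were also lower in high cells of every embryo, with log2 ratios of -0.89 and -0.51. SRSF2, a splicing factor, held 178.1 to 1154 CPM in high and 236.6 to 1605 in low cells. Over all genes tested on Day 3, 0.968% were lower in the high cells of every embryo and 1.31% were higher.

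A further 4 called genes are named after their values were seen. RBM38, an RNA-binding protein, held 298.1 to 954.3 CPM in high cells (median 477.0) and 352.4 to 2134 in low cells (median 877.7), and was lower in high cells in 7 of 8 embryos (log2 ratio -0.82, SE 0.13, edgeR adjusted p = 1.74e-05). SNAI1, a transcriptional repressor, NOCT, nocturnin, and the protocadherin PCDH8 had log2 ratios of -0.73, -0.44 and -0.93, and were lower in high cells in 7, 7 and 6 of 8 embryos.

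Genes that differed between the days were described by their counts in high and low cells. From the sums over whole embryos, edgeR called 1675 of 5274 genes (31.8%) between Day 3 and Day 2. These lists came from the same embryos and are not independent of them. Of the 1122 that rose by Day 3, 978 were tested on Day 3, and 7 were lower (0.716%, against 0.228% over all genes) and 1 higher in high cells. Their median log2 ratio was -0.10, against 0.00 over all genes, and 653 of the 978 lay below 0. Their summed level was 162237.2 to 554348.6 CPM in high and 162573.4 to 564665.1 in low cells, and it was lower in the high cells of all 8 embryos. On Day 2 it was lower in the high cells of all 6 embryos, with 4 genes called higher and 6 lower of 769 tested, 1.3% against 1.87% over all genes. Of the 553 that fell by Day 3, 338 were tested on Day 3 and 0 were called by edgeR's test, with a median log2 ratio of 0.05, and their summed level was higher in the high cells of 7 of 8 embryos. On Day 2 it was higher in the high cells of 6 of 6, with 9 called higher and 6 lower of 549 tested (1.64% and 1.09%, against 1.02% and 0.849% over all genes).

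**Figure D4:**
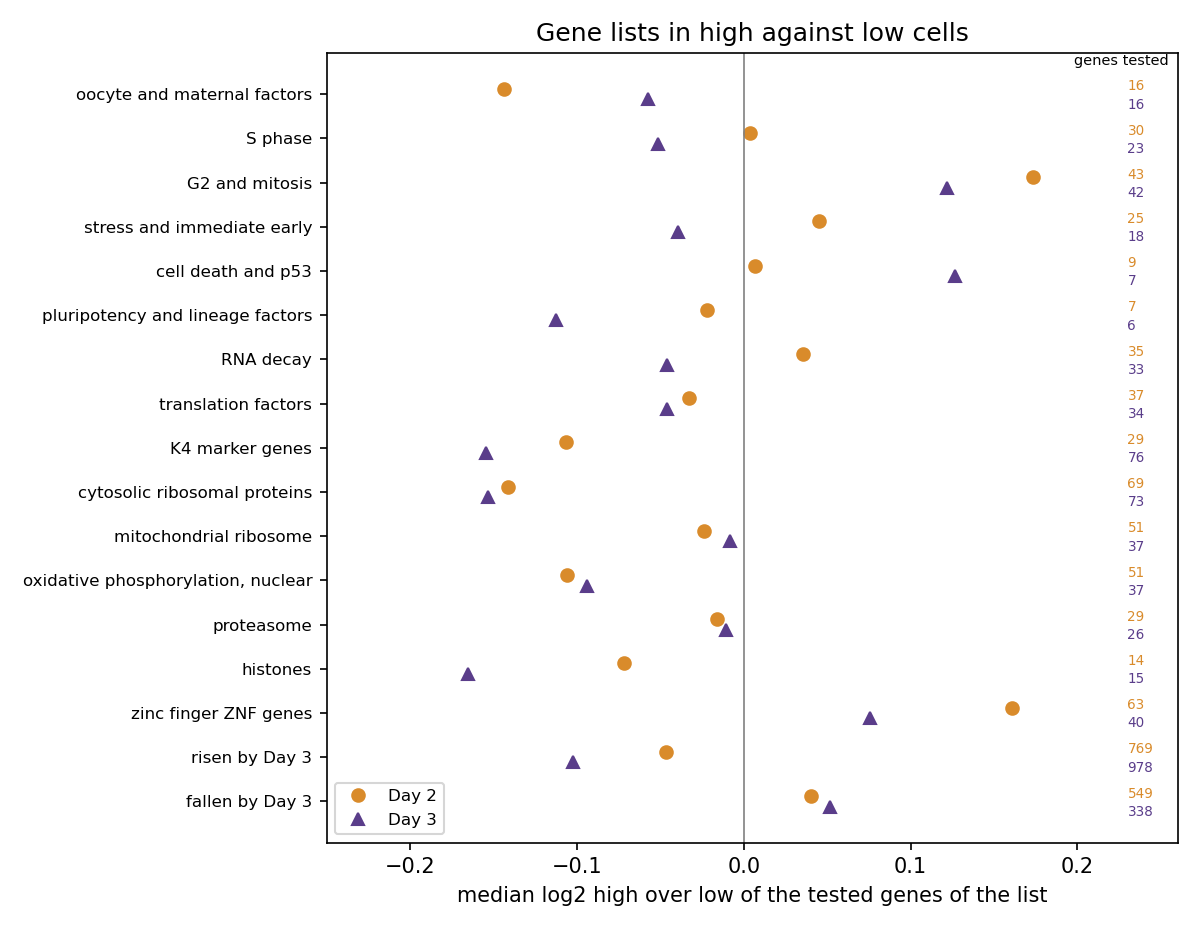
Median log2 ratio of high over low cells for the tested genes of each list with 6 or more tested on both days, as circles for Day 2 and triangles for Day 3, with the number of genes tested at the right. Genes of G2 and mitosis and ZNF genes lie right of 0 on both days, and ribosomal protein genes, oxidative phosphorylation genes and genes that rose by Day 3 lie left of it.

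The lists of Day 2 had few calls on Day 3. Of 42 tested genes of G2 and mitosis only HMGB2 was called higher (2.38%, against 0.057% over all genes) and 0 lower. The median log2 ratio was 0.12 and 31 lay above 0. CENPF, at 754.7 to 2668 CPM in high and 828.2 to 2581 in low cells, had a log2 ratio of 0.16 (adjusted p = 0.531 by edgeR's test). It was higher in the high cells of 7 of 8 embryos. Of 16 oocyte and maternal factors 0 were called by edgeR's test, and the median was -0.06. OOSP1 held 157.1 to 3061 CPM in high and 209.3 to 1927 in low cells, and its log2 ratio was -0.19 (adjusted p = 0.507 by edgeR's test). It was lower in the high cells of 7 of 8 embryos. Of 73 ribosomal protein genes 0 were called by edgeR's test, and 58 lay below 0 with a median of -0.15. DESeq2 called 2 of the 73, against 14 of all 3511 genes. Their summed level was 21121.8 to 70352.2 CPM in high and 22792.3 to 77786.5 in low cells, lower in the high cells of 7 of 8 embryos. Of 15 tested histone genes 13 lay below 0, with a median of -0.17 and 0 calls by edgeR's test. ZNF genes had a median of 0.08, which turned to -0.07 in the second barcode set. The study listed 88 marker genes for its cluster K4 on these cells, so that list is not independent of them. Of its 76 genes tested on Day 3, 1 was lower in high cells (1.32%, against 0.228% over all genes). The median was -0.15, and the summed level was lower in the high cells of all 8 embryos. Of the 11 tested of the study's 12 genes for cluster K1, F3 and TMEM128 were lower in high cells on Day 2 (18.2%, against 0.849% over all genes). The summed level was lower there in 6 of 6 embryos. On Day 3 that sum was higher in the high cells of 7 of 8, with 3 genes tested, 0 called by edgeR's test and a median of 0.15.

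Most of the genes called on Day 2 had the same direction on Day 3. The Day 2 and Day 3 embryos are different embryos, so the comparisons share no sample. Cells were split by the same rule on UMI on both days, however, so the shared directions are not independent of depth. The part of the UMI yield of a well in them was not tested. Of 3283 genes tested on both days, 1992 (60.7%) had the same direction, and the log2 ratios had a Pearson r of 0.277 and a Spearman rho of 0.284 across genes, which are not independent replicates. Of the 47 genes higher in high cells on Day 2, 45 were tested on Day 3, and 41 of these (91.1%) lay above 0, 12 of them at an unadjusted p under 0.05. Of the 39 lower genes, 36 were tested and 29 (80.6%) lay below 0, 10 of them at an unadjusted p under 0.05. Over all 3511 genes tested on Day 3, 398 had an unadjusted p under 0.05 by edgeR's test, in either direction. Of the Day 3 calls, SUPT4H1 had a Day 2 log2 ratio of -0.74 (adjusted p = 0.134 by edgeR's test), and CHD1 had 0.07.

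Only 2 of 4604 genes (0.0434%) differed in their high to low ratio between the days by edgeR's interaction test, with 293 at an unadjusted p under 0.05. MAGOH, a core protein of the exon junction complex, was lower in high cells on Day 2, with 773.2 to 1361 CPM against 880.6 to 2253 (log2 ratio -0.57, adjusted p = 0.00312 by edgeR's test). On Day 3 it held 464.1 to 1149 CPM in high and 281.0 to 1091 in low cells, with a log2 ratio of 0.36 (adjusted p = 0.163). The difference was 0.96 (SE 0.17, edgeR adjusted p = 0.000101). TMSB4X had a log2 ratio of -0.23 on Day 3 (adjusted p = 0.179), and its difference between the days was 0.72 (SE 0.14, edgeR adjusted p = 0.000472). DESeq2 called 0 genes, with 245 at an unadjusted p under 0.05, and edgeR called 0 when only cells of 5000 or more UMI on genes were kept, with 242.

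**Figure D5:**
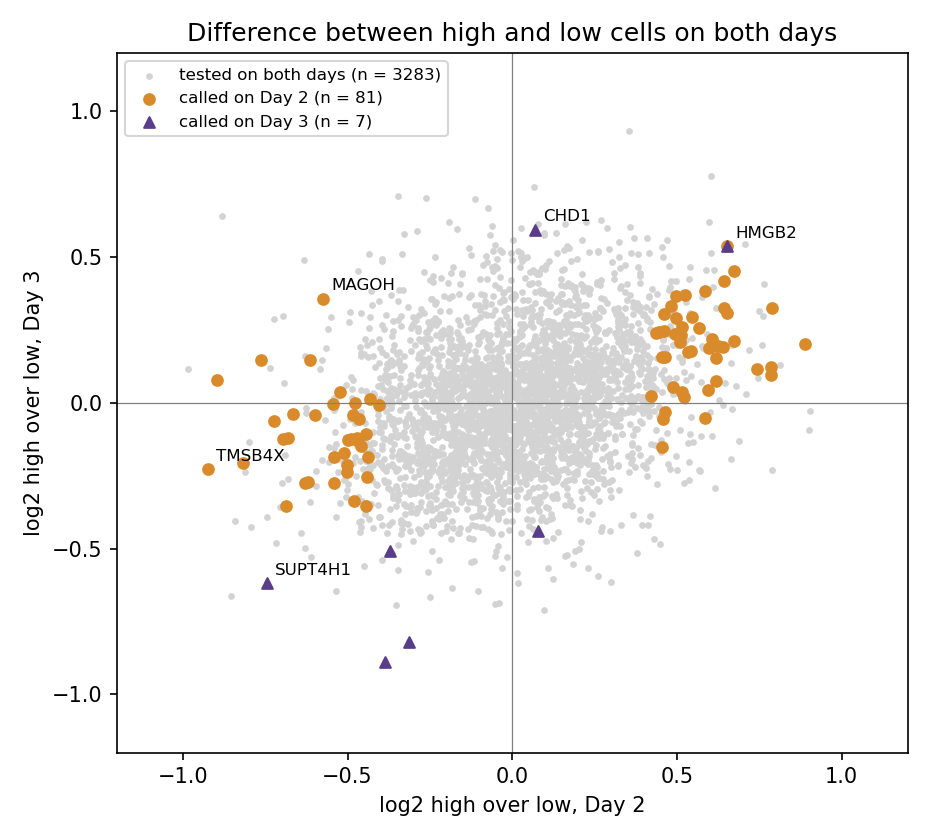
Log2 ratio of high over low cells on Day 2 (horizontal) and Day 3 (vertical) for the 3283 genes tested on both days. Circles mark genes called on Day 2 and triangles genes called on Day 3. HMGB2 is called on both days, and MAGOH lies below 0 on Day 2 and above 0 on Day 3.

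Longer genes tended to be higher in high cells on both days. The length used is the genomic span in RefSeq (assembly ARS-UCD2.0), which 99.8% of the genes tested on Day 2 and 99.7% of those on Day 3 had. The genes higher in high cells on Day 2 had a median span of 40.7 kb and the lower ones of 13.42 kb, against 27.1 kb over all tested. Among the 1146 genes of shortest span 8 were called higher and 18 lower on Day 2, and among the 1146 of longest span 15 were higher and 5 lower. Over all 4593 genes tested 47 were higher (1.02%) and 39 lower (0.849%). The median log2 ratio was -0.07 in the 1146 shortest and 0.08 in the 1146 longest on Day 2, and -0.09 and 0.05 in the 876 shortest and 876 longest on Day 3. Of these Day 3 genes, 1 was called higher and 5 lower among the shortest, and 1 higher and 1 lower among the longest. Over all 3511 tested on Day 3, 2 were higher (0.057%) and 8 lower (0.228%). The Spearman rho of log2 ratio and span across genes was 0.212 on Day 2 and 0.225 on Day 3. The part of gene span in the differences of the named genes was not tested.

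Pluripotency and lineage factors did not differ by edgeR's test. Of 7 tested on Day 2 and 6 on Day 3, 0 were called. SALL4, a zinc finger factor of pluripotent cells, held 667.7 to 842.0 CPM in Day 2 high cells and 342.9 to 776.4 in low cells, with a log2 ratio of 0.37 (adjusted p = 0.0983 by edgeR's test) that did not pass the threshold. KLF4 held 67.6 to 104.2 and 49.0 to 116.3 CPM on Day 2, and 251.9 to 2407 and 120.7 to 2279 on Day 3. FOLR1, a folate receptor, held 10.18 to 1059 CPM in Day 3 high and 9.66 to 1302 in low cells, and RHEBL1, a small GTPase, 66.2 to 722.6 and 57.9 to 1050 (adjusted p = 0.408 and 0.137 by edgeR's test). POU5F1 and FOSL1 were tested on Day 2 only, GRO1 on Day 3 only, and CDX2, NANOG, MYC, SALL1 and PCDH10 were too low to test on either day.

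For POU5F1, NANOG and MYC the share of cells with a UMI differed more between the groups before thinning than at equal depth. POU5F1 had a UMI in 19 of 20 Day 2 high cells (95%, with a 95% Wilson interval 76.4% to 99.1%) and in 13 of 23 low cells (56.5%, 36.8% to 74.4%), yet its expected share at 1500 UMI per cell was 5.74% and 4.36%. NANOG had a UMI in 31 of 57 Day 3 high cells (54.4%, 41.6% to 66.6%) and 20 of 61 low cells (32.8%, 22.3% to 45.3%), and the expected shares were 7.108% and 7.06%. MYC on Day 3 had 52.6% and 39.3%, and 4.79% and 5.51% at equal depth. Other genes of the panel still differed at equal depth, such as FOSL1 on Day 2 with 7.86% in high and 13.29% in low cells, and CDX2 with 1.98% and 1.21%. The intervals cover counting error only. For PCDH10, 18 high and 12 low cells of Day 3 had a UMI, against 0 of the 43 cells of Day 2.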

How the data were processed

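Blastomeres were sequenced by SCRB-Seq. The authors mapped reads to Bos tau7 and the ERCC sequences with STAR 2.5.2b, ran the Drop-seq pipeline for the UMI tables and deposited whole-number UMI counts of 10772 genes and 92 spike-ins in 170 cells. Their normalised table was not used here. The members and gene lists were chosen with earlier results of these data known.

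Counts were summed per embryo and group and tested with edgeR 4.0.16 (filterByExpr, TMM, quasi-likelihood test with the embryo as a block). A gene was called at a Benjamini-Hochberg adjusted p under 0.05. Per-embryo measures were tested by exact permutation. DESeq2 1.42.0 and other splits, filters and thinnings were alternatives, and the code was tested on simulated data. Same-numbered groups are paired because both come from 1 embryo.

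Named genes were, per day and direction, the 8 largest changes among called genes with the same direction in every embryo and a mean of 20 CPM or more (the 5 lowest p where fewer than 3 qualified), up to 4 called genes per list, called interaction genes and a panel of 12. Exceptions are marked, and 1 gene that the rule names is not reported here. Gene spans came from RefSeq. UMI per group ranged from 20417 to 696606.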

Additional observations from a re-analysis of the deposited data

Results flagged for a closer look

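In 103 sets of embryo values 1 embryo was searched for that lay far from the others by Dixon's test at the 95% level, and 16 were found, where chance alone gives about 1 in 20. Day2-E1, whose low cells summed to 20417 UMI, had the highest ratio of UMI on genes (21.9) and of ERCC UMI (25.1) between high and low cells. It also had the highest log2 ratio for ZNF genes (0.52), for genes that fell by Day 3 (0.16) and for CENPF (1.6), and the lowest for METTL15 (-2.70), SFT2D1 (-2.62), TMEM128 (-2.45) and RPS2 (-2.24). Without Day2-E1, 77 genes were called on Day 2, 60 of them among the 86.

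Ribosomal protein genes had their highest log2 ratio in Day2-E6 on Day 2 (0.19) and in Day3-E4 on Day 3 (0.14). Day3-E3 had the highest ratio of UMI on genes per ERCC UMI between high and low cells (1.84), and it holds the low cell with 24.6% ERCC UMI. Without that cell 12 genes were called on Day 3, 8 of them among the 10.

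Day3-E5 had the lowest log2 ratio for genes of embryonic genome activation (-0.93), for K4 marker genes (-0.66) and for genes that rose by Day 3 (-0.35), and the highest for cell death and p53 genes (0.63). Without Day3-E5, 11 genes were called on Day 3, 7 of them among the 10.

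The difference between high and low cells differed between the days for MAGOH (by 0.96 on the log2 scale), for TMSB4X (0.72) and for ERCC UMI per cell (-1.32, Day 3 minus Day 2).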

How the results depend on the processing

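The 86 Day 2 calls became 137 with the median cell left out, 53 with the high sums thinned to the low total, 1 (of 51 genes tested) with each cell thinned to 2000 UMI, 2 without the replicate block, and 0 by edgeR under the split on UMI on genes per ERCC UMI (381 at an unadjusted p under 0.05) and between the outer tertiles of cells (306). Leaving out 1 embryo gave 5 to 98, with 55 without Day2-E5, and no filter gave 63 higher and 15 lower. The 10 Day 3 calls became 17 without a filter (13 higher, 4 lower), 6 and 1 in cells of 5000 and 10000 or more UMI, 24 with thinned sums, 1 (of 226) with thinned cells, 48 between tertiles, and 0 by edgeR without the block (15 at an unadjusted p under 0.05), under the split per ERCC UMI (172) and in the first barcode set (196). Leaving out 1 embryo gave 5 to 15. The 2 interaction genes became 4 without TMM and 0 without the block (35 at an unadjusted p under 0.05), with DESeq2 (245) and at 5000 or more UMI (242), and were 2 to 3 without 1 embryo. The log2 ratio of ERCC UMI was 1.84 to 2.54 without 1 Day 2 embryo (exact permutation p = 0.0625, the smallest possible), and on Day 3 it was 0.90 in the first barcode set and 1.16 in the second. The difference in genes detected at equal depth was 16.21 with medians over cells and 26.12 at 5000 UMI on Day 2 (exact permutation p = 0.03125 for both), and on Day 3 57.7 at 5000 UMI, 17.6 without pairing (p = 0.232, permutation), 15.7 in the first and 21.6 in the second set. The blastomere number differed by -1.16 on Day 2 without pairing (p = 0.04978, permutation) and by -0.93 on Day 3 in the first set. HMGB2 on Day 2 lost its call without the block, with each cell thinned and between tertiles.

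Under the split on UMI on genes per ERCC UMI the log2 ratios turned in sign for 36 named genes, none of them called there. On Day 2 they were PIK3R1 -0.30, METTL16 -0.20, ZNF24 -0.21, PPP1R2 -0.66, PPARGC1A -0.33, EMILIN2 -0.063, FUBP1 -0.23, HMGB2 -0.50, CBX5 -0.27, CENPF -0.12, CNOT4 -0.28, RPL19 -0.24, RPL24 -0.24, HIST2H2AC -0.29, HMGB3 -0.52, LIG1 -0.082, PARP1 -0.14, BRCA1 -0.091 and KIF15 -0.035, and TMSB4X 0.029, METTL15 0.40, SRI 0.22, SFT2D1 0.44, POLR3K 0.30, ZCCHC3 0.47, ZAR1L 0.31, DPPA3 0.083, TYMS 0.30, F3 0.13, TMEM128 0.33, RPSA 0.20, RPS2 0.30, COX7A2L 0.15, ZNF706 0.30 and ID3 0.36. On Day 3 CHD1 was at -0.065, and between tertiles LSM7 on Day 2 was at 0.0765. The causes were not tested.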
